A study of Homo sapiens with 8 samples.

Results

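Host genes for microRNAs and small nucleolar RNAs were followed in 4 human prostate cancer cell lines that received siRNA against DNAPK or a non-targeting siRNA. Members were all symbols of the form MIR...HG or SNHG with a number, plus GAS5, taken from probe sets of the array (groups of probes read as 1 value) that carry 1 symbol. Where a gene had several such probe sets, the one with the highest mean over the 8 arrays stood for it. This gave 36 genes of 22395 in all, 23 microRNA hosts and 13 snoRNA hosts. Of these, 30 (17 microRNA hosts and all 13 snoRNA hosts) had a mean log2 signal above 2.51, the 25th percentile of all genes, and entered the tests among 16796 genes. The 6 below it were MIR2052HG, MIR34BHG, MIR3667HG, MIR3945HG, MIR3976HG and MIR663AHG. Their array values lay between 1.06 and 3.44, and their siRNA differences between -0.65 and 0.46.

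A host gene is transcribed as a long RNA that carries a smaller RNA inside it. In most snoRNA hosts the snoRNA sits in an intron and is trimmed out of the lariat after splicing, while the spliced exons, which usually encode no protein, leave the nucleus and are often broken down by nonsense-mediated decay. Many of these hosts begin with a run of pyrimidines, as ribosomal protein genes do, and are made at high rate in growing cells. In a microRNA host, the nuclear enzyme DROSHA cuts a hairpin out of an intron or exon, and DICER1 then releases the mature microRNA, whose seed (bases 2 to 8) pairs with target messages.

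The mature microRNAs of the hosts that differed most between lines are shown first, because several hosts carry copies of the same families. Sequences are from RefSeq (GRCh38.p14), 5′ to 3′, with the seed in capitals. MIR99AHG on chromosome 21 and MIR100HG on chromosome 11 each hold a let-7 gene, a miR-99/100 gene and a miR-125b gene, and MIR4500HG on chromosome 13 holds a microRNA with the let-7 seed.
let-7c-5p: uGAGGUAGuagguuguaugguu
let-7a-5p: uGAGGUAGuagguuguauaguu
miR-4500: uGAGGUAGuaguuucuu
miR-99a-5p: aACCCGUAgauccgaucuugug
miR-100-5p: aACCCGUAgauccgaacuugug
miR-125b-5p: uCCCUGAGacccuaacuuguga
Of these, let-7c, miR-99a and 1 copy of miR-125b come from MIR99AHG, and let-7a, miR-100 and the other copy of miR-125b from MIR100HG. Counted from the 5′ end, let-7a and let-7c differ by A19G and miR-100 and miR-99a by A16U, both outside the seed, and the 2 genes of miR-125b give the same mature sequence. The hosts MIR181A1HG (chromosome 1) and MIR181A2HG (chromosome 9) are another such pair, each with a miR-181a and a miR-181b gene. Their products differ from each other by A9U, C10U and A21G and share the seed.
miR-181a-5p: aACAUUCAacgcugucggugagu
miR-181b-5p: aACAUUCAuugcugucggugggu
MIR31HG holds miR-31, MIR29B2CHG holds 1 gene of miR-29b and that of miR-29c, and MIR210HG holds miR-210, which are the hosts with the smallest p between pairs of lines, the smallest p after siRNA and the largest single difference after siRNA.
miR-31-5p: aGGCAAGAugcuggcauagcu
miR-29b-3p: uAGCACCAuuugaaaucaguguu
miR-29c-3p: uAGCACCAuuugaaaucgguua
miR-210-3p: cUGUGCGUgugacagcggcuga

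The lines were C4-2B, DU145, PC3 and VCaP. Each gave 1 array of cells treated with non-targeting siRNA (control) and 1 of cells treated with DNAPK siRNA, both harvested 48 h after transfection, with 400 ng of total RNA labelled per array. C4-2B and PC3 were grown in RPMI1640, DU145 and VCaP in DMEM. C4-2B descends from the androgen-responsive line LNCaP and VCaP carries the TMPRSS2-ERG fusion. The lines were paired on background knowledge, since C4-2B and VCaP express the androgen receptor and DU145 and PC3 do not. No second culture of a line with the same treatment was analysed here. The p-values of the siRNA comparison and of the contrasts of line pairs therefore measure the spread between 4 lines, each a single established line. In the F-test of level between lines, the spread is that of the 2 differently treated arrays of a line, after the mean treatment difference. Its p-values do not measure the spread between cultures of a line with the same treatment. With 4 pairs, an exact two-sided sign-flip test of 1 gene cannot go below 0.125.

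Values were log2 signals from RMA, the array summary method named in the submitters' processing notes, and array medians lay between 2.94 and 2.99. PRKDC, which encodes the catalytic subunit of DNA-PK, was lower on the siRNA array of every line, with log2 differences of -2.53 (C4-2B), -1.99 (PC3), -1.08 (DU145) and -0.62 (VCaP). Among line markers, ERG read 8.57 on the VCaP control array, with 3.52 as the highest control value elsewhere. The control signal of KLK3, the androgen-regulated gene for prostate-specific antigen, was 10.12 in C4-2B. KLK3 read 4.46 (VCaP), 3.84 (DU145) and 3.68 (PC3) on the other control arrays. TMPRSS2 placed VCaP (9.03) near C4-2B (9.56) instead, with control signals of 2.18 for DU145 and 6.72 for PC3. For VIM, the DU145 and PC3 controls read 8.19 and 7.82, against 2.22 (VCaP) and 4.29 (C4-2B). For CAV1, these controls read 8.47 and 8.56, against 2.95 (VCaP) and 4.19 (C4-2B). Of 5 immune markers 4 had a value and only CD68 passed the filter, and of 5 fibroblast and endothelial markers 3 had a value and only COL1A1 passed. The summed log2 signal of the 4 immune markers was 11.48 to 14.35 on the control arrays and 10.51 to 14.37 on the siRNA arrays, that of the 3 others 8.05 to 9.92 and 7.48 to 10.02. The defining leukocyte gene PTPRC stayed between 1.30 and 2.02 on all 8 arrays.

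Between lines, 20 of the 30 host genes differed in level (adjusted p under 0.05, limma F-test across 4 lines with treatment as a covariate). Such differences were common on these arrays, since 62.6% of all genes tested passed the same threshold. The mean of the 2 lower lines was below the filter for MIR99AHG, MIR181A2HG and MIR4500HG, which therefore entered the tests through the other lines. The count was 10 of 13 among snoRNA hosts and 10 of 17 among microRNA hosts. The range of a line's level, the mean of its 2 arrays, exceeded 1 on the log2 scale in 19 of 30 host genes, against 44.9% of all genes. The median range was 1.44 for the host genes and 0.91 for all genes. A difference in level in such bulk RNA cannot tell less RNA per cell from fewer cells with it.

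**Figure D1:**
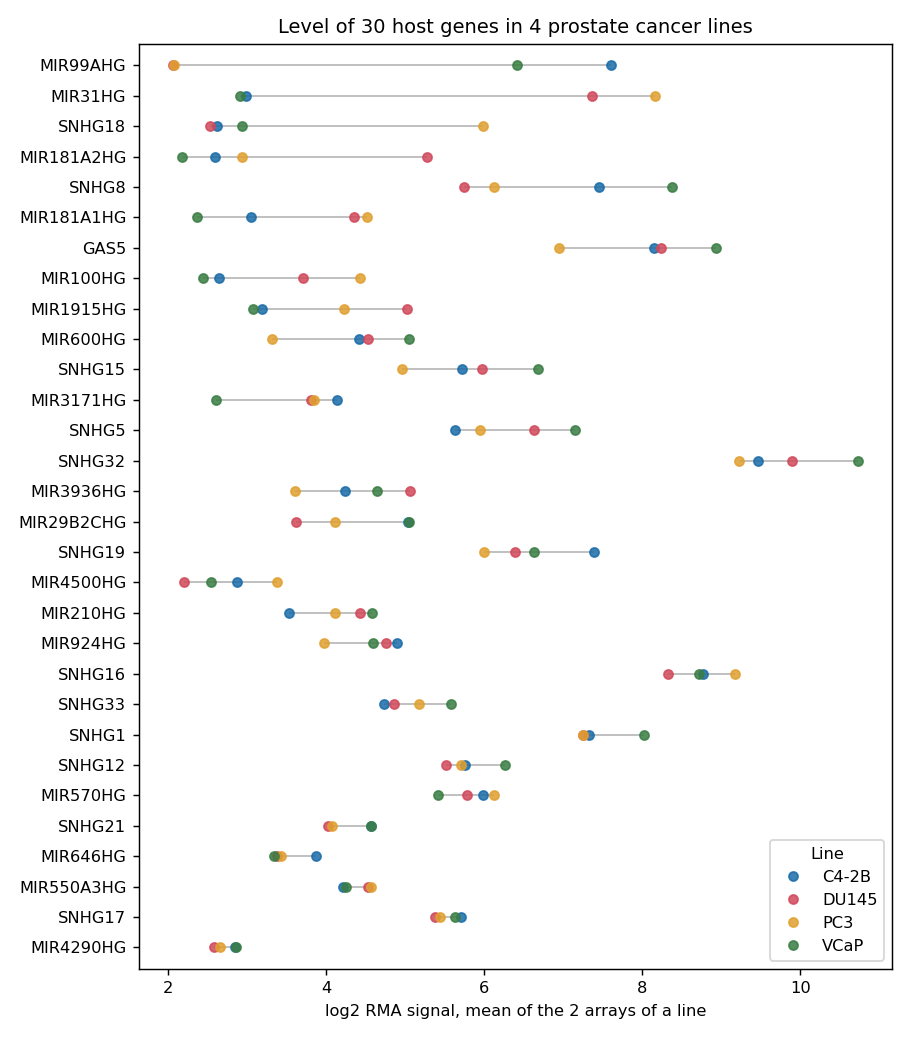
Level of the 30 tested host genes (rows, ordered by range) in 4 lines; each point is the mean log2 RMA signal of the 2 arrays of a line and the grey bar spans the 4 lines. MIR99AHG and MIR31HG have the widest spans, 5.54 and 5.26, with opposite pairs of lines at the high end.

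MIR99AHG had the largest range. Its control and siRNA arrays read 7.81 and 7.40 in C4-2B, 6.61 and 6.23 in VCaP, 2.12 and 2.02 in DU145, and 2.07 and 2.09 in PC3. The RNA was thus high in C4-2B and VCaP and below the filter level of 2.51 in both other lines, with no overlap between the pairs of lines. The gene lay above the filter only through C4-2B and VCaP, and no fold is given against line means of 2.07 and 2.08. With no filter, over 22395 genes, its adjusted p between lines was 1.18e-06 (limma F-test).

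The microRNA genes inside MIR99AHG were read by probe sets of their own and had the same order of lines in broad outline. MIR99A read 5.51 and 5.11 in C4-2B, 5.53 and 4.87 in VCaP, 3.48 and 3.16 in DU145, and 3.88 and 3.0 in PC3. MIRLET7C read 4.26 and 3.44 in C4-2B, 4.91 and 5.09 in VCaP, and between 1.16 and 1.40 on the 4 arrays of DU145 and PC3. MIR125B2, whose mean fell below the filter, read 3.66 and 2.80 in C4-2B, 3.24 and 2.39 in VCaP, and 1.81 to 1.98 in the other lines. All arrays of C4-2B and VCaP stood above all arrays of DU145 and PC3 for each of the 3 microRNA genes. Probe sets on a microRNA gene may read the hairpin, the long precursor or both, and the kit's labelling of total RNA does not separate them.

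MIR100HG, which hosts the sister cluster, had the opposite pattern. Its arrays read 4.44 and 4.43 in PC3, 3.83 and 3.58 in DU145, 2.58 and 2.70 in C4-2B, and 2.61 and 2.29 in VCaP. DU145 and PC3 thus stood above C4-2B and VCaP on every array, by 1.52 in the mean (SE 0.37, unadjusted p = 0.0122 and adjusted p = 0.324, limma on the line means, 2 lines against 2).

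The microRNA genes inside MIR100HG were high in PC3 alone. MIRLET7A2 read 8.40 and 7.93 in PC3, 3.07 and 3.23 in DU145, 1.43 and 1.42 in C4-2B, and 1.38 and 1.98 in VCaP. MIR100 read 5.43 and 5.65 in PC3 and 0.99 to 1.54 on the other 6 arrays, and MIR125B1 read 4.08 and 3.70 in PC3 and 0.92 to 1.99 elsewhere. Of these 3, only MIRLET7A2 passed the filter, and only through PC3, since the mean of its other lines was 2.09. With no filter its adjusted p between lines was 2.31e-06 (limma F-test). In DU145 the host was at an intermediate level while MIR100 read at most 1.54 and MIR125B1 at most 1.99. The microRNA genes of the 2 clusters, from the same 3 families, were therefore highest in different lines. Those of MIR99AHG were highest in C4-2B and VCaP, and those of MIR100HG in PC3. The signals were not confined to these lines, since MIR99A read 3.88 and 3.0 in PC3 and 3.48 and 3.16 in DU145. No microRNA gene of either cluster read above 3.48 in DU145.

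MIR4500HG, the third host of a let-7 seed, did not pass the test between lines (adjusted p = 0.0540, limma F-test). Its arrays read 3.89 and 2.86 in PC3, 2.74 and 3.02 in C4-2B, 2.50 and 2.60 in VCaP, and 2.06 and 2.35 in DU145. Its microRNA gene MIR4500 did pass (adjusted p = 7.46e-04, limma F-test), with 4.91 and 4.39 in PC3, 3.26 and 3.50 in C4-2B, 2.52 and 3.30 in VCaP, and 1.87 and 2.16 in DU145. Host and microRNA gene had the same order of lines.

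**Figure D2:**
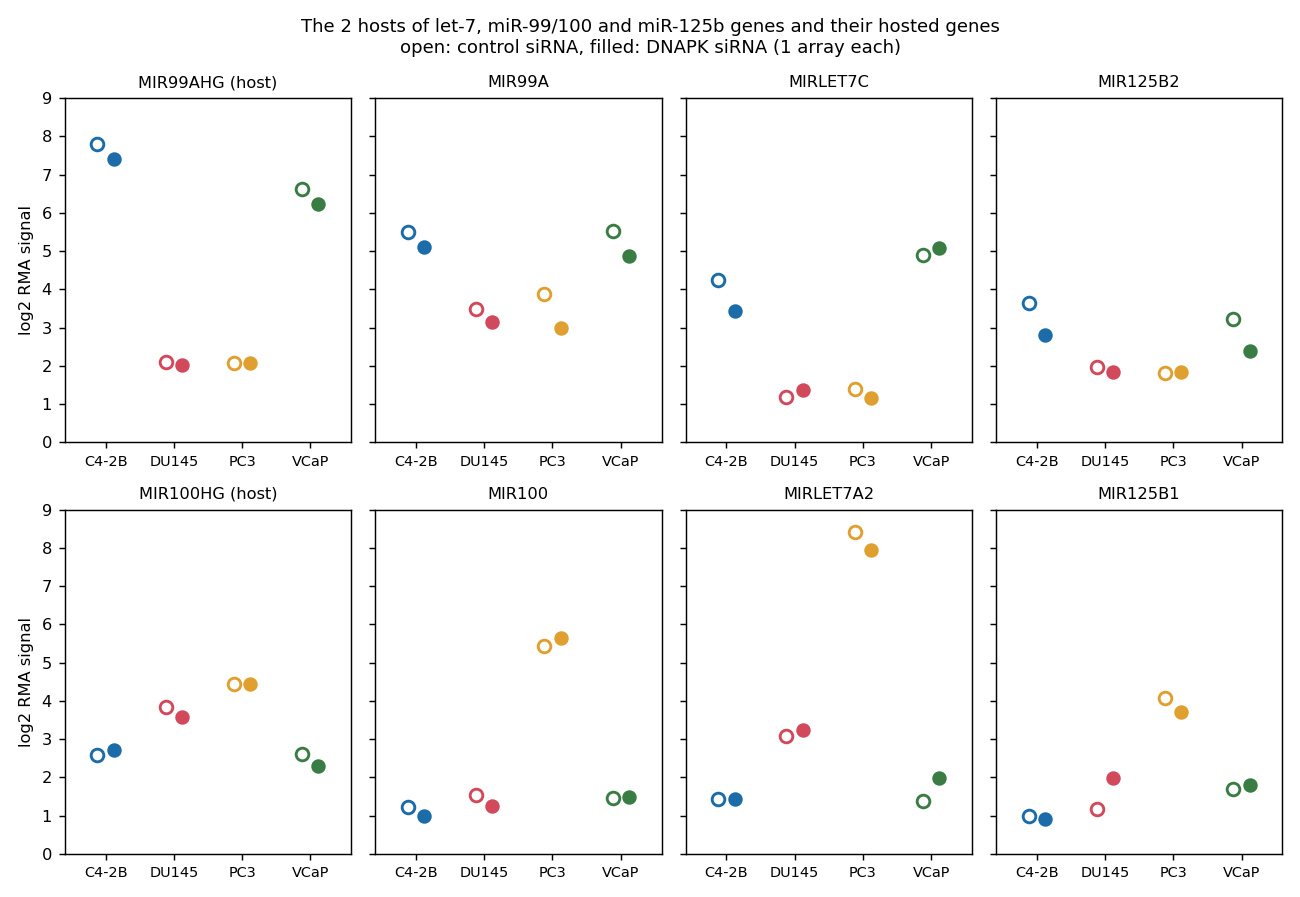
Log2 RMA signal of MIR99AHG and MIR100HG (left panels) and of the microRNA genes inside them, by line; open circles are control arrays and filled circles DNAPK siRNA arrays, 1 each. The upper row is high in C4-2B and VCaP, and the lower row in PC3, where MIRLET7A2 reads 8.40 and 7.93. Heights of different genes are not comparable.

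MIR31HG, the host of miR-31, which is studied in cell migration and senescence, was read at 8.29 and 8.04 in PC3 and 7.82 and 6.92 in DU145. It was 3.25 and 2.72 in C4-2B and 2.83 and 2.99 in VCaP. DU145 and PC3 exceeded the other pair by 4.82 (SE 0.38), the smallest p among the host genes in this contrast of line pairs, though not past the threshold (adjusted p = 0.0647, limma). MIR31 followed, with 4.69 and 4.49 in DU145, 4.59 and 5.03 in PC3, and 2.22 to 2.77 in C4-2B and VCaP.

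No gene of the 16796 passed the contrast of DU145 and PC3 against C4-2B and VCaP (percent called 0, limma adjusted p), and 1601 genes, 9.53%, had an unadjusted p under 0.05. Among host genes 7 of 30 had one. DU145 and PC3 were higher in MIR31HG, MIR181A1HG (1.73), MIR100HG (1.52) and MIR1915HG (1.49). They were lower in MIR99AHG (-4.94, adjusted p = 0.0860), SNHG8 (-1.98) and MIR29B2CHG (-1.18). The next in each direction were MIR181A2HG (1.72), SNHG19 (-0.81) and SNHG21 (-0.52). All arrays of the pairs were separate for 9 host genes, 4 higher and 5 lower in DU145 and PC3, against 11.0% and 9.76% of all genes in these directions, 20.7% in all. For MIR31HG and MIR99AHG, the adjusted p went below 0.05, to 0.0328 and 0.0341, when only the 11197 genes above the median mean level were tested. Both lie above that median only through the pair of lines in which they are high, so that filter favours such genes, and with no filter their adjusted p was 0.0905 and 0.118 (limma).

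The hosts of the miR-181 genes differed in which line held the RNA. MIR181A1HG read 4.22 and 4.49 in DU145, 4.55 and 4.48 in PC3, 3.01 and 3.10 in C4-2B, and 2.82 and 1.92 in VCaP. Its microRNA gene MIR181B1 had the same split, with 5.42 and 4.74 in DU145, 5.28 and 5.0 in PC3, 2.39 and 2.44 in C4-2B, and 2.50 and 1.84 in VCaP, whereas MIR181A1 stayed between 1.36 and 1.99 on every array. MIR181A2HG was high in DU145 only, at 5.38 and 5.18, against 1.81 to 3.41 on the other 6 arrays. Without DU145, its difference between the remaining lines was 0.76 and did not pass (adjusted p = 0.248, limma F-test). MIR181A2 (4.81 and 3.26) and MIR181B2 (5.27 and 4.12) were likewise highest in DU145, and their other arrays lay at 1.66 to 2.94 and 1.83 to 2.80.

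Among the other microRNA hosts that differed between lines, MIR1915HG read 5.54 and 4.51 in DU145, 4.06 and 4.39 in PC3, 3.14 and 3.23 in C4-2B, and 2.85 and 3.31 in VCaP. MIR600HG was lowest in PC3, at 3.60 and 3.02, against 4.39 to 5.11 elsewhere. MIR29B2CHG, host of miR-29 genes whose products target collagen messages, read 5.28 and 4.81 in C4-2B, 5.18 and 4.91 in VCaP, 4.21 and 4.02 in PC3, and 3.79 and 3.45 in DU145. Its MIR29C was also lowest in DU145 (3.08 and 3.40) and highest in C4-2B (5.07 and 4.80). MIR3936HG and its MIR3936 were both highest in DU145 and lowest in PC3. The host read 5.37 and 4.75 in DU145 and 3.51 and 3.72 in PC3, the microRNA gene 4.98 and 4.57 in DU145 and 2.93 and 3.25 in PC3. MIR3171HG was lowest in VCaP (2.27 and 2.95), and the arrays of its other lines overlapped between 3.32 and 4.51.

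The 10 hosts that did not pass the test between lines were MIR4500HG, MIR570HG, MIR924HG, MIR646HG, MIR550A3HG, MIR4290HG, MIR210HG, SNHG12, SNHG17 and SNHG21. Among them MIR924HG read 4.18 and 3.77 in PC3 and 4.21 to 5.01 in the other lines, while its MIR924 passed (adjusted p = 0.00182, limma F-test) and was lowest in PC3 too, at 3.06 and 3.33. MIR570HG read 5.27 and 5.56 in VCaP and 5.61 to 6.31 elsewhere, and its 5 probe sets did not agree in the sign of the siRNA difference in any line but DU145. VCaP had the lowest level in the probe set that stood for MIR570HG but in none of its others. SNHG21 read 3.99 to 4.16 on the arrays of DU145 and PC3 and 4.33 to 4.82 on those of C4-2B and VCaP, separate pairs with a small gap.

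**Figure D3:**
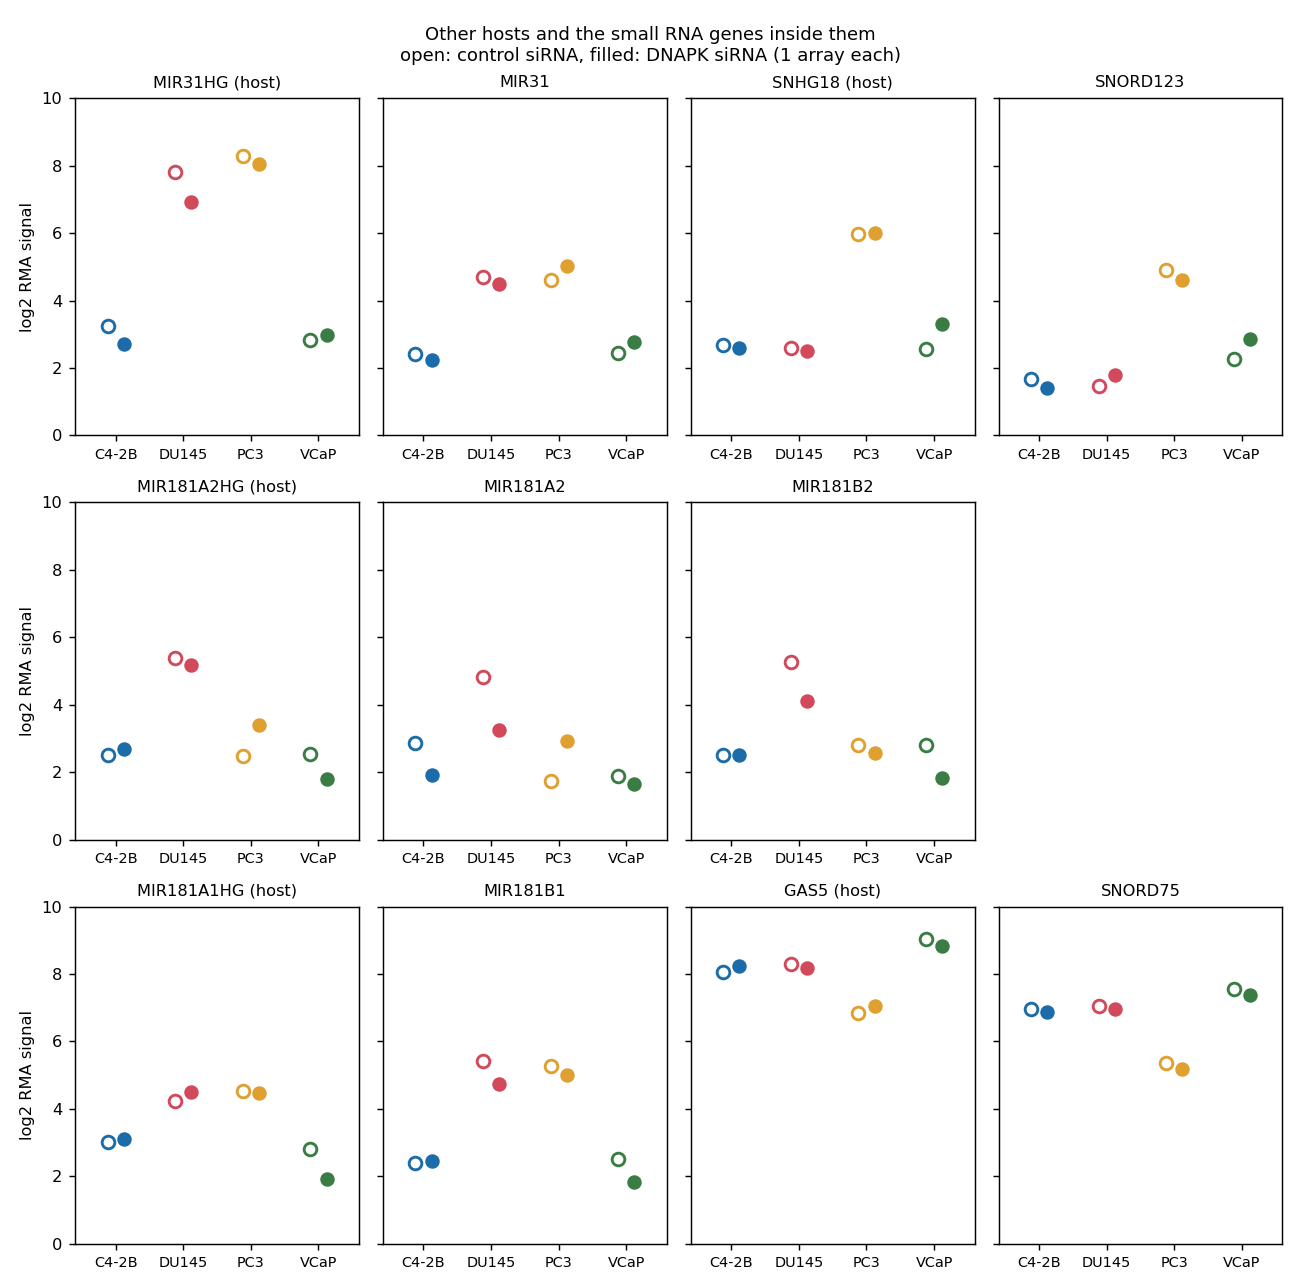
Log2 RMA signal of further hosts and of small RNA genes inside them, by line; open circles are control arrays and filled circles DNAPK siRNA arrays, 1 each. MIR31HG and MIR31 are high in DU145 and PC3, SNHG18 and SNORD123 in PC3, and the MIR181A2HG group in DU145; GAS5 and SNORD75 are lowest in PC3.

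Among snoRNA hosts, VCaP had the highest level in 8 of 13, while 27.4% of all genes were highest in VCaP. Over all 30 hosts, 12 were highest in VCaP, 8 in PC3 (23.0% of all genes), 7 in C4-2B (26.0%) and 3 in DU145 (23.6%). GAS5, a host whose exons are also studied as an inhibitor of glucocorticoid receptor signalling, read 9.03 and 8.84 in VCaP, 8.31 and 8.17 in DU145, 8.06 and 8.24 in C4-2B, and 6.85 and 7.04 in PC3 (adjusted p = 2.71e-04, limma F-test). C4-2B and DU145 overlapped, VCaP stood above both and PC3 below. Of the snoRNA genes in its introns, SNORD75 was likewise highest in VCaP (7.55 and 7.39) and lowest in PC3 (5.37 and 5.19). SNORD78 was lowest in PC3 (7.72 and 7.40) and read 8.58 to 8.93 in the other lines.

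SNHG8, host of SNORA24, read 8.51 and 8.24 in VCaP, 7.40 and 7.50 in C4-2B, 6.24 and 6.01 in PC3, and 5.68 and 5.81 in DU145, and its 4 lines did not overlap. SNORA24 was highest in VCaP (7.90 and 8.28) and lowest in DU145 (6.18 and 6.36). SNHG18 was high in PC3 alone, at 5.96 and 6.01, against 2.49 to 3.32 on the other 6 arrays. Without PC3 the remaining lines differed by 0.40 (adjusted p = 0.383, limma F-test). SNORD123, inside SNHG18, had the same pattern, with 4.89 and 4.62 in PC3 and 1.41 to 2.84 elsewhere.

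SNHG15 was highest in VCaP (6.62 and 6.76) and lowest in PC3 (4.86 and 5.07), and SNHG5 was highest in VCaP (7.03 and 7.26) and lowest in C4-2B (5.74 and 5.52). SNHG32 read 10.80 and 10.66 in VCaP and 9.16 to 10.03 elsewhere. It lies in the MHC region, where several haplotype sequences exist, and 9 probe sets carry its symbol alone. SNHG19 was highest in C4-2B, at 7.40 and 7.37, and lowest in PC3, at 5.88 and 6.12. The remaining 3 that passed had ranges of 0.78 to 0.85. SNHG1 was highest in VCaP (7.69 and 8.36) and read 7.17 to 7.40 elsewhere, with the siRNA array the higher in VCaP. SNHG16, host of the SNORD1 genes, was highest in PC3 (9.32 and 9.03) and lowest in DU145 (8.31 and 8.33). SNHG33 was highest in VCaP (5.43 and 5.72) and lowest in C4-2B (4.70 and 4.76). Its second probe set was highest in PC3 (level 5.05), then VCaP (4.93), so its place among the hosts highest in VCaP depends on the probe set.

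The level of DU145 and PC3 minus that of C4-2B and VCaP was below 0 for 11 of 13 snoRNA hosts (median -0.43) and for 7 of 17 microRNA hosts (median 0.22), and the median over all genes was -0.02.

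RefSeq places 78 small RNA genes inside the spans of 35 of the hosts, on the host's strand where both strands are given. Of these, 36 have a 1-symbol probe set of their own, and 27 (16 microRNA and 11 snoRNA genes, in 21 hosts) passed the filter together with their host. Between lines 21 of the 27 passed the F-test (62.6% of all genes did), and 17 of the 27 were highest in the same line as their host. The mean of the 3 lower lines was below the filter for 5 of the 27 (MIRLET7A2, MIRLET7C, MIR181A2, MIR181B2 and SNORD123), which were tested only because of their higher lines, so the count of 21 is a description. In the 15 pairs in which both passed, 11 were highest in the same line. MIRLET7A2, MIR181A2, MIR181B2 and SNORD123 are among these 11 and entered the tests through that line. The counts of 17 and 11 are therefore descriptions too, and no share for unrelated gene pairs was worked out. Host and hosted probe sets share the same RNA samples, and unspliced host RNA can be read by both. A pair that parted was SNHG17, highest in C4-2B with a range of only 0.33, and SNORA71A, highest in VCaP (9.98 and 9.95) with a range of 2.56. The SNORA71 genes are near-identical copies, so their probe sets cannot be tied to 1 gene with certainty.

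The starts of the snoRNA hosts were read from RefSeq to show the pyrimidine run. A start with C followed by 4 bases that are each C or T was present in 5 of 12 snoRNA hosts with an entry, in 0 of 16 microRNA hosts and in 4.04% of 27305 promoters in the table. The first 25 bases of the 5 are given with the opening run of C and T in capitals.
SNHG12 (chr1:28581849-28581873, minus strand): CCTTTCTCCCCgccgcattcccggt
SNHG18 (chr5:9546200-9546224, plus strand): CTCCTCCTCCTCCTCCTCCCCgccg
SNHG19 (chr16:2155334-2155358, minus strand): CTTTTCggggtcgagtccgaggggg
SNHG32 (chr6:31834916-31834940, plus strand): CTTTTTgcgaagtgggctcgtgggt
SNHG5 (chr6:85678709-85678733, minus strand): CTTTTacgtcggccttcgcgagcgt
The 5 did not share 1 pattern over the lines: SNHG18 was high in PC3 alone, SNHG19 was highest in C4-2B, SNHG5 and SNHG32 were highest in VCaP, and SNHG12 did not pass the test between lines.

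With DNAPK siRNA, no host gene was called. The targeted gene PRKDC, lower in every line, was not called either (unadjusted p = 8.37e-04, adjusted p = 0.688, limma). A missing call therefore does not show that a gene was unchanged. In the paired comparison over the 4 lines (limma with line as a block) 0 of 30 host genes and 0 of 16796 genes passed (percent called 0), and 1208 genes, 7.19%, had an unadjusted p under 0.05, among them 1 host gene. The median of the mean differences was -0.02 for the 30 host genes, against 0.03 for all genes. It was 0.01 for the snoRNA hosts, 8 of 13 above 0, and -0.11 for the microRNA hosts, 5 of 17 above 0, where 56.4% of all genes were above 0. Without DU145 the median of the host genes was 0.003. A difference of the same sign in all 4 lines was seen in 3 host genes and in 17.4% of all genes.

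**Figure D4:**
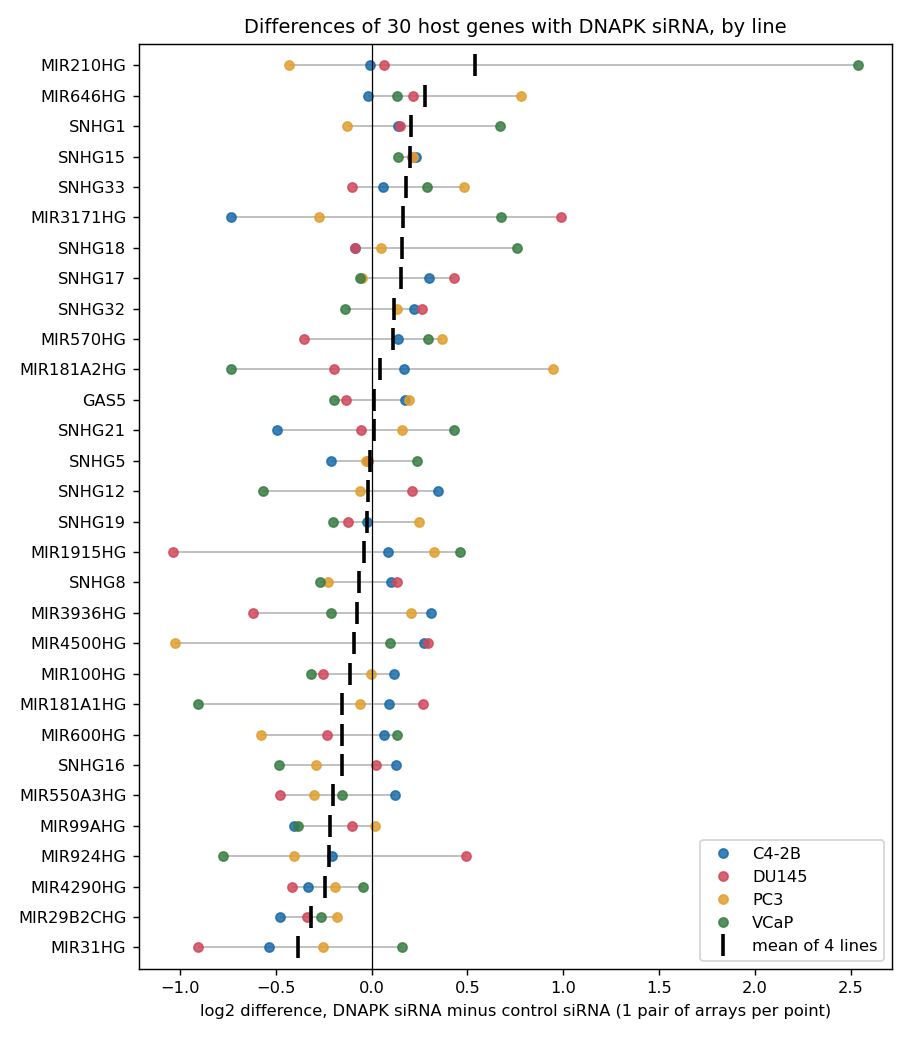
Log2 difference between the DNAPK siRNA and the control array in each line for the 30 tested host genes, ordered by their mean; each point is 1 pair of arrays and the black bar is the mean of 4 lines. MIR210HG in VCaP stands alone at 2.54, SNHG15 has its 4 points together at 0.14 to 0.23, and most other genes straddle 0.

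The host gene with the smallest p was MIR29B2CHG, lower by 0.48 in C4-2B, 0.34 in DU145, 0.26 in VCaP and 0.18 in PC3. The mean difference was -0.32 ± 0.13 (SD, n = 4; 95% interval -0.58 to -0.05), lower in 4 of 4 lines, with an unadjusted p of 0.0244 and an adjusted p of 0.688 (limma). Its MIR29C did not follow in each line, with differences of -0.27, 0.32, 0.05 and -0.52 in the same order.

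SNHG15, a host of a single snoRNA whose long RNA is known to be short-lived, had the narrowest spread of the 30 hosts over the lines. It was higher with DNAPK siRNA in every line, by 0.14 (VCaP), 0.21 (PC3), 0.21 (DU145) and 0.23 (C4-2B), with a mean of 0.20 ± 0.04 (SD, n = 4) that did not pass (adjusted p = 0.693, limma). Of all genes, 11.5% were higher in 4 lines. MIR4290HG was lower in 4 lines, by 0.42 (DU145), 0.33 (C4-2B), 0.19 (PC3) and 0.04 (VCaP). The mean was -0.25 ± 0.16 (SD, n = 4; adjusted p = 0.688, limma), and 5.89% of all genes were lower in 4 lines. Its arrays lay at 2.38 to 3.02, close to the filter level.

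MIR31HG was lower by 0.90 in DU145 and 0.26 in PC3, the lines in which it was high, lower by 0.53 in C4-2B and higher by 0.16 in VCaP, where its signal was near 3. The mean difference was -0.38 ± 0.45 (SD, n = 4; adjusted p = 0.688, limma). MIR99AHG was lower by 0.41 in C4-2B and 0.39 in VCaP, the lines in which it was high, and -0.10 and 0.02 apart in DU145 and PC3 (mean -0.22 ± 0.21, SD, n = 4; adjusted p = 0.704, limma). Its MIR99A was lower in 4 of 4 lines, most in PC3 (0.88) and VCaP (0.66), then C4-2B (0.40) and DU145 (0.32). Its mean was -0.56 ± 0.26 (SD, n = 4; unadjusted p = 0.00318, adjusted p = 0.688, limma).

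Of the remaining hosts among the 10 smallest p, MIR646HG was higher by 0.78 in PC3, 0.22 in DU145 and 0.13 in VCaP and -0.02 apart in C4-2B. SNHG1, host of 9 small RNA genes in RefSeq, was 7.69 on the control and 8.36 on the siRNA array of VCaP, a difference of 0.67, and it differed by 0.14 (C4-2B), 0.15 (DU145) and -0.13 (PC3) elsewhere. SNHG33 differed by 0.06, -0.10, 0.48 and 0.29 in C4-2B, DU145, PC3 and VCaP. Its second probe set gave 0.54 in DU145 and -0.47 in VCaP, so its direction in those lines depends on the probe set. MIR550A3HG was lower by 0.48 in DU145, 0.30 in PC3 and 0.15 in VCaP and higher by 0.12 in C4-2B. The microRNA gene MIR550A3 was lower in 4 of 4 lines (mean -0.67 ± 0.24, SD, n = 4; unadjusted p = 9.85e-04, adjusted p = 0.688, limma), and it has near-identical copies elsewhere in the genome that its probes may read too.

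GAS5 was 0.20 higher in PC3 and 0.18 higher in C4-2B but 0.19 lower in VCaP and 0.13 lower in DU145. The mean was 0.01 (95% interval -0.28 to 0.30, limma), and its sign turned when arrays were rescaled. Over the 27 tested small RNA genes whose host was also tested, 0 were called and 5 had an unadjusted p under 0.05, against 7.19% of all genes. These were MIR99A, MIR550A3, MIR181B1, MIR181B2 and SNORD99, each lower in the mean. MIR181B2 entered the tests only through DU145, where its difference was largest (-1.16), so the count is a description. The siRNA difference had the same sign in host and small RNA gene in 71 of the 108 line-by-line values. These values are not independent, since some hosts enter with several small RNA genes and all share the same arrays. No share for unrelated gene pairs was worked out beside it.

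MIR210HG had the largest single difference of the family. In VCaP it read 3.32 on the control and 5.85 on the siRNA array, a difference of 2.54 or 5.81-fold, the value ranked 2 from the top of all 16796 genes in that line. It read 3.54 and 3.53 in C4-2B, 4.40 and 4.47 in DU145, and 4.33 and 3.90 in PC3. The difference was thus seen in 1 line of 4, and the mean of 0.54 ± 1.35 (SD, n = 4) did not pass (adjusted p = 0.770, limma). Without VCaP the mean was -0.13. The microRNA gene itself, MIR210, read 6.86 and 6.18 in VCaP, a difference of -0.68 opposite to its host, and 6.65 to 7.05 in the other lines.

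The long RNA and miR-210 are known targets of the hypoxia-inducible factors, so a list of 30 hypoxia and glycolysis genes was followed beside them, 27 of which were tested. None was called in the paired comparison (limma), and 21 of 27 had a mean difference above 0 (median 0.23). In VCaP 25 of 27 were above 0, with a median of 1.01, and 15 were higher by over 1, where 49.7% of all genes were above 0 and 1.29% higher by over 1. In C4-2B 10 of the 27 were above 0 (median -0.08; 57.1% of all genes), in DU145 15 (0.04; 56.9%) and in PC3 4 (-0.24; 55.5%). PLOD2, a collagen lysyl hydroxylase, read 6.81 and 9.47 in VCaP (2.66), and the glycolytic enzyme ALDOC 4.0 and 5.47 (1.47). At the other end, the mitophagy receptor BNIP3L differed by -0.19 in VCaP, with a mean of -0.26, but its VCaP arrays read only 4.41 and 4.23. In the other lines BNIP3L read 9.0 to 10.15. NDRG1 differed by 0.70 in VCaP, with a mean of -0.21. The difference rests on 1 array of each treatment in VCaP, the line with the smallest PRKDC difference, and no second VCaP culture was analysed here.

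**Figure D5:**
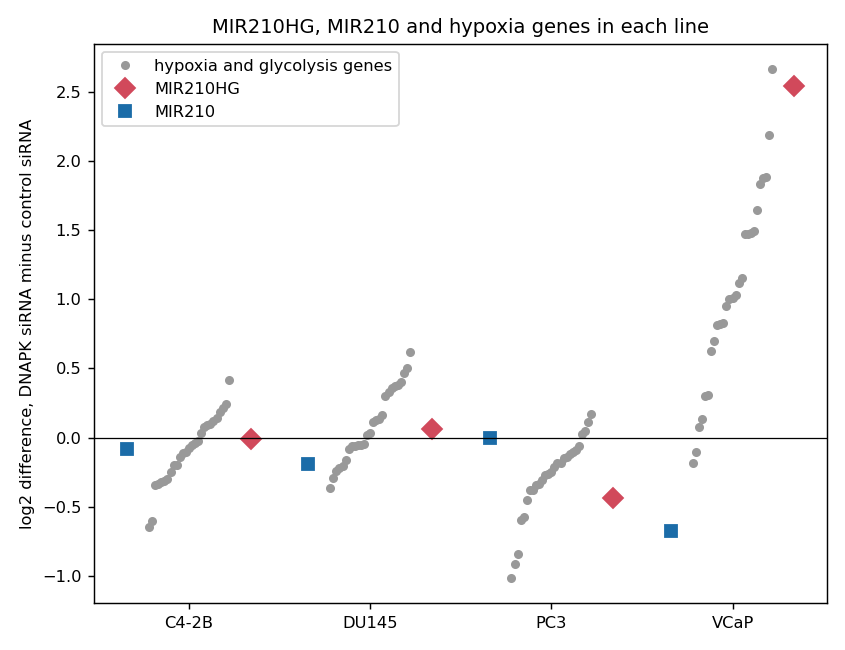
Log2 difference between the DNAPK siRNA and the control array in each line for MIR210HG (diamonds), MIR210 (squares) and 27 hypoxia and glycolysis genes (grey points, sorted within a line). In VCaP MIR210HG lies at 2.54 and the median grey point at 1.01, while MIR210 lies at -0.68; in the other lines MIR210HG lies between -0.43 and 0.06.

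The promoter of MIR210HG is shown because it is the host whose signal stood apart in VCaP. The window runs from 250 bases before to 50 bases after the RefSeq start (GRCh38.p14, chr11:568408-568707, minus strand). It was searched for the hypoxia core ACGTG or GCGTG on both strands (CACGT or CACGC on the other), and matches are in capitals.
MIR210HG promoter: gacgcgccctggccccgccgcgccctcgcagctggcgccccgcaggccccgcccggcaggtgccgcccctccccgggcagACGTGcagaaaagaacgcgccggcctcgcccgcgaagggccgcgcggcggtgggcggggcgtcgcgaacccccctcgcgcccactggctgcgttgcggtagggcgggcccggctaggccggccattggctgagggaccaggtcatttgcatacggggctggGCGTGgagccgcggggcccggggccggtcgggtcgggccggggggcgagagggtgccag
It held 2 matches, beginning 170 and 9 bases before the start. At least 1 match is present in 48.4% of 27305 promoters and at least 2 in 23.3%, and in 12 and 7 of the 28 host genes with a promoter in the table, so the match alone is common. A single CACGTG counts as 2 matches in this search, 1 per strand, so the shares with at least 2 can include promoters with 1 site. The 2 matches of MIR210HG are separate sites.

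In single lines, few host genes differed by over 1 on the log2 scale. In C4-2B there was none, where 0.244% of all genes were higher and 0.339% lower by over 1. The largest differences there were MIR3171HG (-0.73), MIR31HG (-0.53) and SNHG21 (-0.49) below 0, and SNHG12 (0.35), MIR3936HG (0.31) and SNHG17 (0.30) above.

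In DU145 1 host gene was lower by over 1 (0.816% of all genes), MIR1915HG, from 5.54 to 4.51. It was followed by MIR31HG (-0.90) and MIR3936HG (-0.62). The largest positive differences were MIR3171HG (0.99), MIR924HG (0.49) and SNHG17 (0.43). MIR3171HG thus had opposite signs in DU145 and C4-2B.

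In PC3 1 host gene was lower by over 1 (0.542% of all genes), MIR4500HG, from 3.89 to 2.86, while MIR4500 differed by -0.52 there. It was followed by MIR600HG (-0.58) and MIR210HG (-0.43). MIR181A2HG (0.95, from 2.47 to 3.41), MIR646HG (0.78) and SNHG33 (0.48) were the largest above 0, and of the microRNA genes inside MIR181A2HG, MIR181A2 read higher (1.74 and 2.94) and MIR181B2 lower (2.80 and 2.57).

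In VCaP 1 host gene was higher by over 1, MIR210HG, and none lower (2.42% of all genes were). SNHG18 (0.76, from 2.56 to 3.32), MIR3171HG (0.67) and SNHG1 (0.67) came next. SNORD123, inside SNHG18, read 2.26 and 2.84. MIR181A1HG (-0.90, from 2.82 to 1.92), MIR924HG (-0.78) and MIR181A2HG (-0.73, from 2.54 to 1.81) were lowest, all but MIR924HG (4.99 to 4.21) near the filter level. SNHG12 differed by -0.56 and its SNORD99 by -0.78.

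The spread of single-line differences over the 30 host genes was widest in VCaP, with an SD of 0.63, then 0.41 in DU145, 0.39 in PC3 and 0.28 in C4-2B. Over all genes it was 0.46, 0.33, 0.33 and 0.29 in this order. The median SD of a gene over the 4 lines was 0.42 for microRNA hosts, 0.25 for snoRNA hosts and 0.26 for all genes. The 5 tested hosts at or below the filter level in some line (MIR100HG, MIR181A1HG, MIR181A2HG, MIR4500HG and MIR99AHG), like the 6 untested ones, were microRNA hosts.

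Whether the siRNA difference itself depended on the pair of lines was tested as the difference of C4-2B and VCaP minus that of DU145 and PC3. No gene passed (percent called 0), and 0 host genes had an unadjusted p under 0.05, against 621 genes, 3.70% (limma). The smallest p values were those of MIR210HG (1.45), MIR600HG (0.50) and MIR550A3HG (0.37) in 1 direction, and of MIR646HG (-0.44), MIR924HG (-0.54) and MIR99AHG (-0.35) in the other, each with an adjusted p of 0.991 (limma).

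The proteins that act on these RNAs were followed in fixed lists, none of which had a called gene. Of 14 tested proteins of the snoRNA particles and their assembly, 14 had a mean difference above 0 (median 0.13, 0 with an unadjusted p under 0.05), where 56.4% of all genes were above 0. SNU13, which binds the box C/D core, had the largest (0.27), then the assembly factor RPAP3 (0.22), and NHP2 (0.01) and RUVBL1 (0.00) the smallest. In PC3 6 of the 14 were above 0, with a median of -0.04.

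Of 15 nonsense-mediated decay factors, 10 were above 0 (median 0.07). UPF1, the central helicase, was higher in 4 of 4 lines by 0.28 ± 0.11 (SD, n = 4; unadjusted p = 0.0364, adjusted p = 0.688, limma), and the exon junction protein RBM8A by 0.25. SMG6 and MAGOHB had means of -0.09 and -0.08. Of 13 microRNA processing factors 7 were above 0 (median 0.07), from TARBP2 (0.28) and AGO1 (0.25) to AGO3 (-0.11) and TNRC6C (-0.14).

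Protein-coding hosts gave similar medians. Of 10 tested snoRNA hosts of 35 listed, 6 were above 0 (median 0.04), with RPL12 (0.15) and RPL37 (0.11) highest and TPT1 (-0.26) and HSPA9 (-0.10) lowest. Of 25 tested microRNA hosts, 16 were above 0 (median 0.05). DNM2 had a mean of 0.30 and EVL 0.28. DNM2 is on the list although its miR-199 gene lies on the opposite strand, so the RNA of DNM2 does not carry it. CTDSP2, a phosphatase gene with a miR-26 gene in an intron, had -0.36 and MEST -0.29.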

How the data were processed

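The 8 arrays were analysed, 1 per line and treatment. The deposited values were log2 signals; RMA and the oligo package are named in the submitters' processing notes without versions, and array design files or scan batches are not given in the sources used here. Of 53617 probe sets, 25713 list a gene, 23871 with 1 symbol and 1842 with several, and 27904 were unnamed here. For 22569 probe sets, symbols were updated by Entrez identifier through RefSeq (GRCh38.p14). Probe sets with several symbols were not used, which left out 20 family symbols (MIR17HG and MIR22HG among them, not analysed here).

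All tests were fitted in limma 3.58.1 (R 4.3.3) over the 16796 genes above the filter, with Benjamini-Hochberg adjustment and a threshold of 0.05. The 4 fits were DNAPK siRNA against control with line as a block (3 residual df), an F-test of level over 4 lines with treatment as covariate, and 2 contrasts of line pairs, on line means and on differences (2 residual df each). Same-numbered samples are the same line: the 2 arrays of a line correlated at 0.86 to 0.92 in their deviation from group means. Members, lists and contrasts were chosen with earlier results of these data known. Genes with printed values were the 10 smallest paired p, the 3 largest differences each way per line, the 10 largest ranges, the smallest p of both contrasts, the 4 analysed here of 6 fixed hosts, and 4 genes per partner list; the remaining hosts and all hosted genes are described as the pattern required. Fits were tested on simulated data. Alternatives were 2 rescalings, 2 filters, averaged probe sets, a trended prior, no block, control arrays alone, and leaving out each line.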

Additional observations from a re-analysis of the deposited data

Results flagged for a closer look

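In 90 groups of 4 values (the control level, the DNAPK siRNA level and the difference of each of the 30 tested host genes over the lines), 1 value stood far from the other 3 in 6 groups, and chance gives about 1 such group in 20. Control levels stood apart for MIR181A2HG in DU145 (5.38, the other lines from 2.47), SNHG18 in PC3 (5.96, the others from 2.56) and MIR570HG in VCaP (5.27, the others from 5.92). The low VCaP level of MIR570HG rests on the probe set that stood for the gene, since VCaP was not the lowest line in any other. Another of its probe sets had a level of 4.34 in VCaP and 3.72 to 4.01 in the other lines. The 5 probe sets of MIR570HG gave differences of -0.59 to 0.50 in VCaP. Differences after DNAPK siRNA stood apart for MIR210HG in VCaP (2.54), SNHG18 in VCaP (0.76) and MIR4500HG in PC3 (-1.03).

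MIR600HG was higher with DNAPK siRNA in both C4-2B and VCaP and lower in both DU145 and PC3, a gap of 0.50 between the pairs. This gap did not pass the test of the difference (unadjusted p = 0.0908, adjusted p = 0.991, limma), and 10% of all genes had such opposite signs.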

How the results depend on the processing

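Of the counts and medians over the family, 52 of 53 alternative values kept their side of the threshold. The exception was the level contrast of DU145 and PC3 against C4-2B and VCaP, where 2 host genes, MIR31HG and MIR99AHG, and 60 genes in all passed when only genes above the median mean level were tested, which adjusts over fewer genes and keeps these 2 only through the lines in which they are high. The count of host genes that differed between lines lay between 15 and 22 over 10 alternatives, 18 to 20 when a line was left out. The count called after DNAPK siRNA stayed 0 in each alternative, without the replicate block (0) included. The median difference of the family lay between -0.04 and -0.01 under the other settings and between -0.06 and 0.003 when a line was left out, with a positive sign without DU145 only. A trended prior or a fit without the block cannot change this median. Rescaling moved the median of all genes from 0.03 to 0.01.

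For the hosts named by the rule, 504 of 526 alternative values kept direction and call. Much of this was fixed in advance. A range between lines has no sign to turn, and no siRNA difference of a host was called in any setting. Another filter, a trended prior or no block leaves the siRNA estimate of a gene unchanged. The count of 504 is therefore a description. GAS5 turned to -0.0027 with arrays centred on their medians and to -0.020 with cyclic loess, and SNHG21 to -0.0037 with centring. Leaving out a line turned the sign of the mean siRNA difference of 14 of the 30 hosts, none of them called in any of these fits. SNHG5 turned to 0.062 without C4-2B and 0.0013 without PC3, and SNHG19 to 0.0087 without DU145 and 0.035 without VCaP. The mean of GAS5 was -0.043 without C4-2B and -0.050 without PC3, with a range over the 4 lines left out of -0.050 to 0.080. Without VCaP, MIR181A1HG read 0.098, MIR210HG -0.13, MIR3171HG -0.0068, SNHG12 0.17, SNHG18 -0.042, SNHG21 -0.13 and SNHG8 0.0011. Without PC3, MIR181A2HG read -0.25, MIR4500HG 0.22 and SNHG21 -0.039. Without DU145, MIR1915HG read 0.29, MIR3171HG -0.11 and MIR3936HG 0.10. Between lines, MIR181A2HG without DU145 and SNHG18 without PC3 lost their call. The precision is limited by 1 array per line and treatment, and low signals near the filter level have no reliable order.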
